A study of Mus musculus with 2 samples.

Results

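The genes described are 10 enzymes that remove superoxide and peroxide: the peroxiredoxins Prdx1, Prdx2, Prdx3, Prdx5 and Prdx6, the superoxide dismutases Sod1 and Sod2, the glutathione peroxidases Gpx1 and Gpx4, and catalase (Cat). They were chosen by name, 10 of 21938 protein-coding genes, and every accessible region that overlaps a gene body or lies within 50 kb of it was taken. Of the merged regions of the whole genome, 50 of 21194 in replicate 1 and 50 of 22620 in replicate 2 met that rule. The assay was ATAC-seq, in which a transposase inserts into open chromatin, on 50000 cells per library. The 2 libraries are biological replicates of a single group of G1E cells, a mouse line that the labels describe as a Gata1- erythroid progenitor, from a male C57BL/6J animal at postnatal day 0. All cells therefore lack Gata1, the factor that drives red cell maturation, no cells with Gata1 are compared here, and a single line stands for the cell type. The labels do not say whether the replicates came from separate cultures, so their spread may be technical. With 1 group there is no contrast to test, and counts for the 10 genes are set beside the same counts for all protein-coding genes.

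Superoxide leaks from the respiratory chain and from the oxidation of hemoglobin, and superoxide dismutases turn it into hydrogen peroxide. Catalase, peroxiredoxins and glutathione peroxidases then reduce that peroxide, the peroxiredoxins mostly with electrons from thioredoxin and the glutathione peroxidases with electrons from glutathione. Red cell precursors carry much heme iron, which turns peroxide into more damaging radicals, and Prdx2 and catalase are among the abundant proteins of the mature red cell.

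A promoter region is a listed region within 1000 bp of an annotated start site of the gene. All 10 genes had one in replicate 1, against 40.5% of all protein-coding genes, and all 10 had one in replicate 2, against 42.1%. In all 10 the replicates listed the same region, as they did for 38.7% of all genes. Genes with CpG-rich starts are listed far more often than others, and 8 of the 10 have a CpG observed to expected ratio of at least 0.6 at a start site. All 8 of those had a promoter region in both replicates, against 62.6% of all genes in that class. Cat, with a ratio of 0.549, and Prdx3, with 0.485, fall in the CpG-poor class, where 12.2% of all genes had one. The authors' more lenient lists also held a promoter region for all 10 genes, against 42.9% of all genes.

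The identity of the cells could be checked on the same lists. All 10 erythroid progenitor markers, such as Klf1, Nfe2 and Epor, had a promoter region in both replicates, against 38.7% of all genes. Of these 10, 3 have a CpG ratio of at least 0.6. By the percentile of signal defined below, the median of the 10 markers was 39.1, against 72.8 for all genes with a promoter region in both. None of the 20 markers of hepatocytes, neurons, granulocytes and macrophages, and lymphoid cells had one, in either replicate. The lenient list of replicate 2 held one for the neuron marker Rbfox3. In that order of cell types, only 0, 1, 1 and 0 of 5 markers each have a CpG ratio of at least 0.6. Below that ratio 12.2% of all genes had a promoter region, so the lack of one at these markers is weak evidence of cell type. Lists of megakaryocyte and mast cell markers were not included. The peak lists hold no read totals, so the depth is unknown, no counting interval can be given, and chromatin outside the listed regions may still be open. In a bulk sample, a region open in few cells and a region weakly open in all cells cannot be told apart.

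The strength of a region is given as the signal value that the authors' peak caller assigned to its strongest peak, and as the percentile of that signal among all regions of the same replicate, because signal is not scaled between libraries. By the mean percentile of both replicates, the order of the promoter regions was Gpx4, Sod2, Cat, Prdx3, Sod1, Gpx1, Prdx5, Prdx2, Prdx1 and Prdx6. The mean percentile was 86.7 at Gpx4 and 17.2 at Prdx6. The median of the 10 was 69.2, against 72.8 for the 8488 protein-coding genes with a promoter region in both replicates, whose quartiles were 52.9 and 87.4. Presence and strength thus differed: all 10 were listed, and 5 of the 10 lay above the all-gene median. The 5 genes that are not peroxiredoxins lay between 62.4 and 86.7, with a median of 78.2. The 5 peroxiredoxins lay between 17.2 and 76.4, with a median of 43.4, and Prdx3 was the only one of them above 45.

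**Figure D1:**
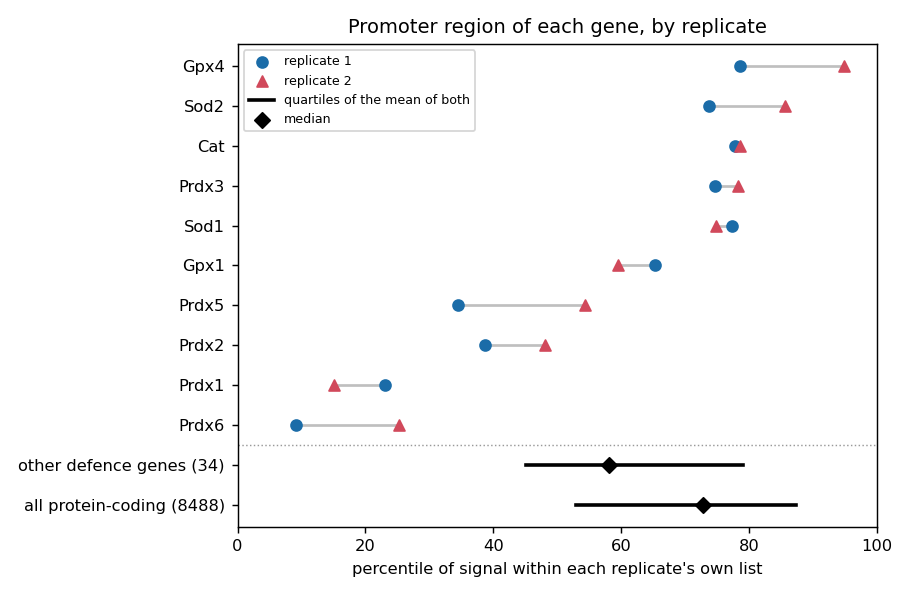
Percentile of signal of each gene's promoter region within replicate 1 (circles) and replicate 2 (triangles), with medians (diamonds) and quartiles (bars) of the mean percentile for 34 other defence genes and 8488 protein-coding genes. The 34 include 2 genes of the NADPH oxidases, which make superoxide. Gpx4, Sod2, Cat, Prdx3 and Sod1 lie above the all-gene median of 72.8, and Prdx1 and Prdx6 lie below its lower quartile of 52.9 by the widest margins.

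The replicates differed by a median of 8.66 percentile points over the 10 genes, against 7.18 over all genes with a promoter region in both. The gap ranged from 0.868 points at Cat to 19.95 points at Prdx5. Neighbours in the order are therefore often closer than their replicates. Sod2, Cat, Prdx3 and Sod1 lay between 76.1 and 79.7 and are not separated by these libraries, nor are Prdx5 and Prdx2, at 44.4 and 43.4, or Prdx1 and Prdx6, at 19.1 and 17.2. The 6 genes from Gpx4 to Gpx1 lay above the other 4 in each replicate, without overlap.

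Sod1 encodes the copper and zinc superoxide dismutase of the cytosol. Its promoter region, chr16:90220181-90220943 in the mm10 build, covers the only annotated start of the gene. The signal was 11.5 in replicate 1 and 12.1 in replicate 2, at percentiles 77.4 and 74.8. The summits lay 142 and 121 bp upstream of the start. Sod2, the manganese enzyme of the mitochondrial matrix, had its promoter region at chr17:13007653-13008439, with a signal of 10.9 and 14.2 at percentiles 73.7 and 85.6. Its summits lay within 17 bp of an annotated start but 996 and 986 bp inside the outermost 5′ end of the gene. So the upstream start of Sod2 had no listed region over it, and the lenient lists held none within 250 bp of it either.

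The sequences of both dismutase regions are shown because they are the only start site regions of the 10 genes with a match to the antioxidant response element, the site of NRF2 and its relatives. Each sequence shown here and later is mm10 reference, 5′ to 3′ on the strand of the gene. Except for a RefSeq promoter stretch of Prdx1 given last, it is the 200 bp around the mean of the replicates' summits, cut so that it holds at most 30 bases annotated as untranslated. Capitals mark every whole match to the 15 motifs searched.
Sod1 start site region (chr16:90220522-90220721, plus strand): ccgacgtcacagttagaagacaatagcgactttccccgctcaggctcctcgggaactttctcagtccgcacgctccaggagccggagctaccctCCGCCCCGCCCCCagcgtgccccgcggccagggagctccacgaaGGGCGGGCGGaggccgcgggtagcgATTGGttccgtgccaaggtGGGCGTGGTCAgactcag
Sod2 start site region (chr17:13007737-13007846, plus strand): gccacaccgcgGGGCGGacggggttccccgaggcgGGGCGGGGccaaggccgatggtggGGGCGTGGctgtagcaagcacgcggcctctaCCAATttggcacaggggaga
In Sod1 the last capital run joins a GC-rich box to the antioxidant response element match. The match in Sod2 lies beyond the end of the stretch shown.

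Catalase breaks down hydrogen peroxide without a partner molecule. Its promoter region, chr2:103484886-103485404, covers both annotated starts and had a signal of 11.6 in replicate 1 and 12.8 in replicate 2. The percentiles were 77.8 and 78.6, and the summits lay 19 and 20 bp from a start. The −log10 p values that the authors deposited for it were 39.1 and 44.0, against 9.22 and 16.3 at Prdx6. The stretch is shown because it carries 3 NFY matches, the letters CCAAT or their complement, and 3 KLF1 matches before the start site.
Cat start site region (chr2:103485131-103485278, minus strand): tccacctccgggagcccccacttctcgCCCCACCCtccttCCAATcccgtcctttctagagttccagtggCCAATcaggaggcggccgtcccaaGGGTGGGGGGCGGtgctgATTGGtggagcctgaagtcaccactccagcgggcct

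Gpx1, the cytosolic selenium enzyme that reduces hydrogen peroxide with glutathione, had its promoter region at chr9:108338860-108339422. The signal was 9.78 and 9.95 at percentiles 65.2 and 59.5. The start of the annotated gene Gm37401 lies in this region or within 1000 bp of it, so the signal cannot be assigned to Gpx1 alone. Gpx4, which reduces peroxidised lipids in membranes and so protects cells from ferroptosis, had the strongest promoter region of the 10, at chr10:80053267-80053746. Its signal was 11.7 in replicate 1 and 17.1 in replicate 2, at percentiles 78.5 and 94.9, and both summits fell on the same base. That base lies 30 bp from the start of a coding transcript and 6352 bp inside the outermost annotated 5′ end, where neither the main nor the lenient lists held a region within 250 bp. The listed region of Gpx4 was therefore at an internal start. The stretch holds a GC box and an NFY match before that start.
Gpx4 start site region (chr10:80053418-80053517, plus strand): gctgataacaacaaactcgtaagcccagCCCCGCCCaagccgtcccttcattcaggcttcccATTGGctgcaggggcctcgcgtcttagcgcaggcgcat

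The peroxiredoxins reduce peroxide through a reactive cysteine. Prdx3, the enzyme of the mitochondrial matrix, had the strongest promoter region of the 5, chr19:60874273-60874763, with a signal of 11.1 and 12.7 at percentiles 74.6 and 78.2. Its only annotated start lay 27 and 26 bp from the summits. The stretch is shown because the gene falls in the CpG-poor class over 1000 bp, while the 200 bp around the summit have a ratio of 0.702. It holds 3 KLF1 matches and 2 RUNX matches.
Prdx3 start site region (chr19:60874527-60874681, minus strand): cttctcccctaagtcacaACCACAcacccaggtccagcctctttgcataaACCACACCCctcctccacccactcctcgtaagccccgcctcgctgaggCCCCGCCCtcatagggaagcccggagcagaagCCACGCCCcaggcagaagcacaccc

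Prdx5, found in mitochondria, peroxisomes and cytosol, had its promoter region at chr19:6909537-6910237, with a signal of 6.82 and 9.36 at percentiles 34.4 and 54.4. This region is shared with the start of Trmt112, a partner protein of methyltransferases, and the summits of the replicates lay 381 bp apart. The signal cannot be divided between both genes. The 200 bp searched for motifs, set around the mean of the Prdx5 summits, hold neither summit. Prdx1, an abundant cytosolic enzyme, had a signal of 5.97 and 5.76 at percentiles 23.1 and 15.1, in the region chr4:116685533-116686123. Prdx6, which reduces oxidised phospholipids and also has phospholipase activity, had the weakest by mean percentile, chr1:161251035-161251389. There the signal was 4.90 and 6.67 and the percentiles were 9.20 and 25.2. The stretch is shown because this region, weakest of the 10 by mean percentile, has a dense set of GC boxes, with 4 KLF1 matches, 3 of them also KLF and SP matches.
Prdx6 start site region (chr1:161251190-161251275, minus strand): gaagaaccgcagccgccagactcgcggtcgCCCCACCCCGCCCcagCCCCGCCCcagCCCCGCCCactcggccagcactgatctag

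Prdx2, the main peroxiredoxin of the red cell, differed from the other 9 in where its region lay. The region within 1000 bp of a start site was chr8:84971024-84971418, inside the gene, with a signal of 7.13 in replicate 1 and 8.67 in replicate 2. The percentiles were 38.7 and 48.1. Its summits lay 1606 and 1610 bp from the outermost 5′ end, and 263 and 259 bp from the nearest start of any annotated transcript. The edge of the region was 38 bp from that start in replicate 1 and 97 bp in replicate 2, while the nearest start of a coding transcript was 785 and 800 bp away. The region counts as a promoter region by the distance rule alone. At the outermost 5′ end, in a gene whose start sites reach a CpG ratio of 0.701, neither the main lists nor the lenient lists held a region within 250 bp.

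A region lay over an annotated start of the gene in both replicates for 9 of the 10 genes, against 34.8% of all genes, and over a coding start for the same number, against 33.6%. Prdx2 was the exception in both counts. Of all genes with a promoter region in both replicates, 6.16% had no region over any of their starts in either replicate, as Prdx2. The strongest promoter summit lay over 1000 bp from the outermost 5′ end in both replicates for 2 of the 10 genes, Prdx2 and Gpx4, against 12% of all such genes.

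The sequence of the Prdx2 region also differed from the other 9. Its CpG observed to expected ratio was 0.0655 over 200 bp, against a range of 0.476 to 1.23 at the others. The 1.23 is that of Prdx5, whose 200 bp lie between the summits of the replicates. The median was 0.768 over all promoter regions and 0.224 over all distal regions. The Prdx2 region was the only one of the 10 with a match to the GATA motif, AGATAA or its complement. It also held 1 KLF1 match. Of all promoter regions, 6.98% had a GATA match, and of all distal regions 45.6%.
Prdx2 internal region (chr8:84971095-84971294, plus strand): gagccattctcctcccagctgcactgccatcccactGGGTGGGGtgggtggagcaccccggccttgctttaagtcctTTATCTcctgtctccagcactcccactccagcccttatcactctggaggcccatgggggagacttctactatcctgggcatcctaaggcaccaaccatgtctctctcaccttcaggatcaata
Klf1, the gene of an erythroid factor that binds CACCC boxes, ends 64.3 kb before Prdx2 on the same chromosome, outside the window, and 2 regions listed in both replicates lay between the genes.

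Within the gene bodies and the 50 kb on each side, the lists of both replicates together held 55 regions. Of these, 44 were in both replicates, 5 in replicate 1 only and 6 in replicate 2 only. The 11 regions listed in 1 replicate were weak, with a median percentile of 15.7, against 62.2 for the 44 in both. For 7 of the 11, the lenient lists of both replicates held the region. Of the 44, 10 were the genes' own promoter regions and 23 were promoter regions of other protein-coding genes. A further 1 lay at a noncoding start and 10 were distal, over 1000 bp from every annotated start. The signal of a neighbour's promoter cannot be assigned to the enzyme genes from these data, and those 23 made up the larger part of what lay around them.

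**Figure D2:**
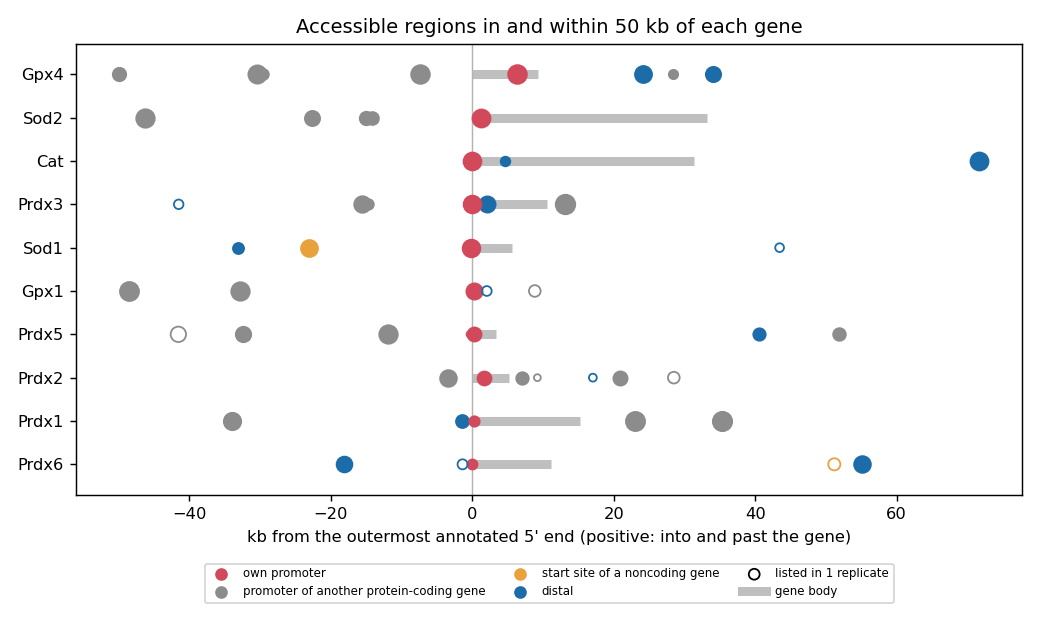
Regions in and around each gene by distance in kb from the outermost annotated 5′ end, with positive values running into and past the gene. Filled points are regions in both replicates, open points are in 1 replicate, the area grows with mean percentile of signal and grey bars are gene bodies. The promoter regions of Gpx4, Sod2 and Prdx2 lie to the right of the 5′ end, and Prdx2, Sod2 and Gpx1 have no filled distal point.

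The 10 genes had a median of 4.5 regions in both replicates in the window, from 3 at Cat, Gpx1, Prdx6 and Sod1 to 8 at Gpx4, against a median of 2 for all protein-coding genes. They also lie among more genes. The window held a median of 4.5 protein-coding gene starts for the 10, against 3 for all genes, although the genes themselves are shorter, with a median length of 9.89 kb against 17.4 kb. Whether the count of regions follows from the count of neighbours was not tested. Just inside the window limit lay the region of Abca7, 49.6 kb from Gpx4 at percentile 39.1. Just outside it were regions 50.1 kb from Prdx6, 50.4 kb from Prdx2 and 50.6 kb from Gpx4, at percentiles 40.7, 65.2 and 61.1.

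**Figure D3:**
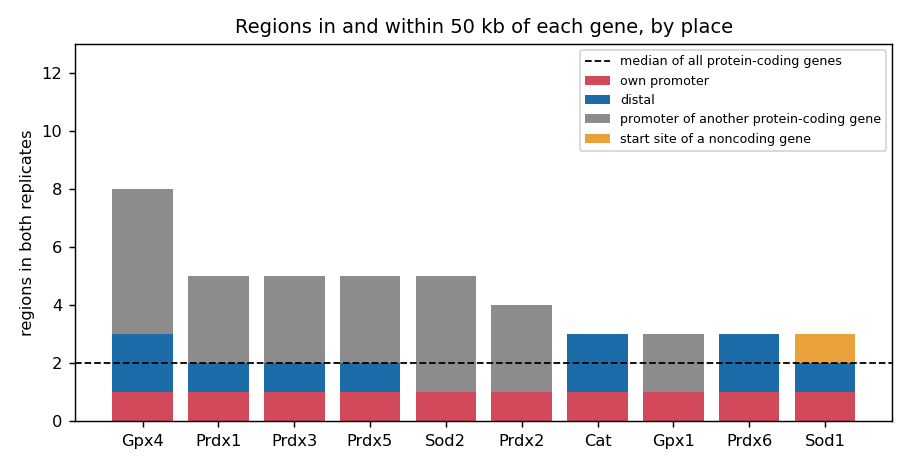
Number of regions in both replicates in or within 50 kb of each gene, stacked by place, with the median of 2 for all protein-coding genes as a dashed line. Gpx4 has 8 regions, 5 of them promoters of other genes, and every bar has 1 own promoter region.

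Distal regions in both replicates were found at 7 of the 10 genes, against 38.8% of all genes, and none at Prdx2, Sod2 or Gpx1. The median was 1 distal region per gene, against 0 over all genes. Their median percentile was 56.3, against 51.0 for all 8227 distal regions in both replicates. Of the 10 distal regions, 2 lay in the body of their gene, in introns of Prdx3 and Cat. With a limit of 2000 bp from start sites, 7 distal regions at 5 genes were left. Prdx1 and Prdx3 then had none, as their only distal regions lay closer than that to a start. The 38.8% of all genes is for the limit of 1000 bp only.

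The Prdx3 intron region, chr19:60872193-60872615, lay 2.15 kb inside the gene. Its signal was 9.11 in replicate 1 and 10.6 in replicate 2, at percentiles 59.3 and 64.8. It is shown because it holds 2 GATA matches and a match to no other motif searched.
Prdx3 intron region (chr19:60872351-60872550, minus strand): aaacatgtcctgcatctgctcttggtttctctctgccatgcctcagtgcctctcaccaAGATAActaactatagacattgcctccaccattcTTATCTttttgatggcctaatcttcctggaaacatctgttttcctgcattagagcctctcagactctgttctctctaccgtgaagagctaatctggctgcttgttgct
The Cat intron region, chr2:103480305-103480680, lay 4.67 kb inside the gene and was weak, with a signal of 4.95 and 6.29 at percentiles 9.60 and 20.1. It holds an antioxidant response element match, which is the reason it is shown.
Cat intron region (chr2:103480328-103480527, minus strand): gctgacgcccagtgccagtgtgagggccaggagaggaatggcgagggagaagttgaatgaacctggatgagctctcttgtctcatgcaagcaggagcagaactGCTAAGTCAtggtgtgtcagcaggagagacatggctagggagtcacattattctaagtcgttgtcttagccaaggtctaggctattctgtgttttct
By mean percentile, the strongest distal region at any of the 10 genes lay 40.1 kb downstream of Cat, at chr2:103413169-103413768 in an intron of Elf5, which encodes an ETS family factor. Its signal was 10.6 and 14.5, at percentiles 71.7 and 86.8. In replicate 1 alone, the distal region downstream of Prdx6 ranked higher, at 73.6. It is shown for its 2 GATA and 2 NFY matches. Which gene such a distal region acts on is not known from these data.
Elf5 intron region near Cat (chr2:103413498-103413697, minus strand): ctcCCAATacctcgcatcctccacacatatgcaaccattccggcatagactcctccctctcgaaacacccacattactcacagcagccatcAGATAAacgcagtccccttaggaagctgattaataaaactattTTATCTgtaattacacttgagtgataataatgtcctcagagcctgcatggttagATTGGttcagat

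Gpx4 had a pair of distal regions, both over exons of Sbno2. The stronger of them, chr10:80070916-80071582, lay 14.5 kb downstream of Gpx4, with a signal of 9.84 in replicate 1 and 12.02 in replicate 2, at percentiles 65.7 and 74.0. It is shown because it was the only one of the 20 own promoter and distal regions in both replicates with a match to NF-E2, the letters GCTGAGTCA. Such a match was in 3.37% of all distal regions and 0.375% of all promoter regions, so 1 of 20 is near the background. Each such match is also a match to the antioxidant response element, TGACNNNGC, and to AP-1, TGANTCA, on one strand or the other. Only 30 bases are given because the exon is annotated as untranslated.
Sbno2 region near Gpx4 (chr10:80071314-80071343, plus strand): gttcctggaagGCTGAGTCAtgttccgggc
Prdx1 had its distal region 1.17 kb upstream of the gene, at chr4:116683747-116684376, with a signal of 6.31 and 8.22 and 1 GATA match. It ranked above the Prdx1 promoter region in each replicate, at percentile 28.4 against 23.1 in replicate 1 and 43.4 against 15.1 in replicate 2. At the other loci, the strongest distal region was 43.7 kb downstream of Prdx6 at mean percentile 67.2, 37.0 kb downstream of Prdx5 at 31.8, and 32.9 kb upstream of Sod1 at 23.2.

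Matches to the motifs were set beside those in all regions with the same 200 bp window: 8538 promoter regions and 8227 distal regions in both replicates. A match is exact, on either strand, and describes letters, not binding. The other motifs were CCGCCC for KLF and SP, CCNCNCCC for KLF1, CCGGAAG for ETS, CGCATGCGC for NRF1, AAGATGGC for YY1, CACGTG for USF and MYC, GTAAACA for FOXO, TGACGTCA for CREB, TGTGGT for RUNX, and CTCF by name. A box that matches both KLF motifs counts under each. A KLF1 match was in the promoter region of 9 of the 10 genes, all but Prdx5, against 59.3% of all promoter regions. A KLF and SP match was in 8, all but Prdx2 and Prdx5, against 58.1%. The Prdx5 window holds neither summit, so matches there, or the lack of them, describe the letters between its summits. The GC content was 64.25% at the median of the 10 and 62.5% over all promoter regions.

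NFY matches were in 4 promoter regions, those of Sod1, Sod2, Gpx4 and Cat, against 39.4% of all. All of those 4 are among the 5 strongest of the 10. Whether an NFY match goes with strength over all promoter regions was not tested. The antioxidant response element was matched in 2, Sod1 and Sod2, against 12.1%. USF and MYC matches were in Prdx1 and Prdx5, against 8.14%, and an ETS match in Prdx5 only, against 18.7%. NF-E2, AP-1, NRF1, YY1, FOXO, CREB and CTCF had no match in any of the 10 windows. They are rare in all promoter regions too, with shares of 0.375% for NF-E2, 3.62% for AP-1, 2.67% for NRF1, 3.77% for YY1, 1.83% for FOXO, 3.53% for CREB and 0.960% for CTCF. RUNX was matched in 1, Prdx3, against 9.01%. Among the 10 distal regions, 4 had a GATA match, those upstream of Prdx1, in the Prdx3 intron, at Gpx4 and in the Elf5 intron near Cat, against 45.6% of all distal regions. NFY was matched in 5 of these 10 against 22.1%, KLF1 in 4 against 28.1%, ETS in 2 against 2.69%, the antioxidant response element in 2 against 14.5%, and AP-1 in 1 against 13.95%. KLF and SP, at 10.02% of all distal regions, and USF and MYC, at 5.15%, had 1 each. RUNX had none, against 24.3%, nor did NRF1, YY1, FOXO, CREB or CTCF, each in under 4% of all distal regions.

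**Figure D4:**
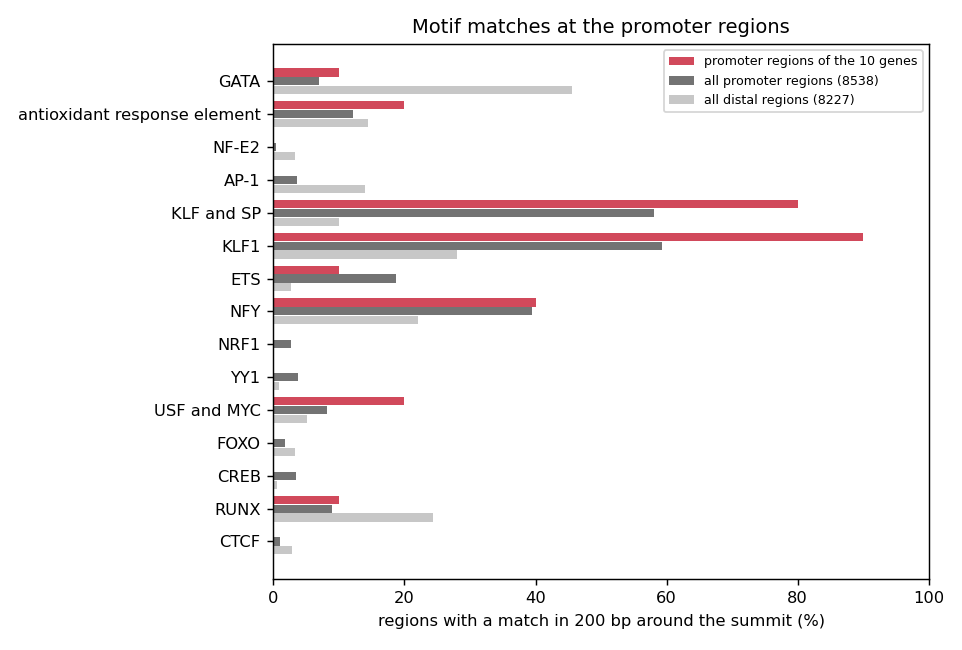
Percent of regions with at least 1 match in the 200 bp around the mean of the replicates' summits. Bars are the promoter regions of the 10 genes (red), all 8538 promoter regions (dark grey) and all 8227 distal regions (light grey). At Prdx5 the 200 bp hold neither summit. KLF1 reaches 9 of the 10 genes against 59.3% of all promoter regions, and GATA 1 of 10 against 6.98%.

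A match can also lie beside a listed region. RefSeq promoters, from 250 bp before to 50 bp after a start in the GRCm38.p6 build, were at hand for 9 of the 10 genes, without Prdx6. A gene counts here if any of its RefSeq promoters matches. The shares beside it are of single promoters, with or without a listed region, so counts and shares are not on the same basis. An antioxidant response element match was in 2 of the 9, Sod1 and Prdx1, against 12.4% of 32851 promoters in that table. An NF-E2 match was in 1, Prdx1, against 0.454%, and so was an AP-1 match, against 7.81%. KLF1 and KLF and SP matches were in all 9, Prdx2 and Prdx5 included, against 49.5% and 35.7%. In the 200 bp windows of all promoter regions listed in both replicates, those shares were higher, at 59.3% and 58.1%. NFY was in 4, Sod1, Sod2, Gpx4 and Cat, against 37.4%, RUNX in Prdx3 and Prdx2 against 16.8%, ETS in Prdx5 against 8.86% and YY1 in Gpx1 against 2.75%. GATA, NRF1, USF and MYC, FOXO, CREB and CTCF were in none of the 9, with GATA in 11.2% and USF and MYC in 7.15% of the table. The Prdx1 match lies 124 bp before the RefSeq start and 59 bp outside the region listed at Prdx1. It is shown because the window around the Prdx1 summits holds neither motif, and capitals mark that match alone.
Prdx1 upstream stretch (chr4:116685455-116685484, plus strand): ccagggaaagcGCTGAGTCAtcccccgtag

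The same readout was made for 57 other genes around peroxide and superoxide, in 7 lists by role. They are called other defence genes here, although 9 of them are genes of the NADPH oxidases, which make superoxide. A promoter region in both replicates was found for 34 of the 57, or 59.6%, against 38.7% of all genes, and 20 had none in either replicate. Without the NADPH oxidase genes, 32 of 48 had one, or 66.7%. The median percentile of the 34 was 58.1, against 69.2 for the 10 genes and 72.8 for all genes. Of the 57, 37 have a CpG ratio of at least 0.6, and 28 of those had a promoter region in both, against 62.6% of all genes in that class.

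All 8 genes of the thioredoxin and peroxiredoxin list had one. The strongest were Txnip, an inhibitor of thioredoxin, at mean percentile 82.7, and Txnrd3, a thioredoxin reductase, at 72.2. The glutathione list had 7 of 17, or 41.2%, near the 38.7% of all genes. Its strongest were the glutaredoxins Glrx3, at 93.9, and Glrx, at 86.6. No promoter region was listed in either replicate for Gclc, the catalytic subunit of the enzyme that limits glutathione synthesis, for Gpx2, Gpx3, Gpx5, Gpx6, Gpx7 and Gpx8, or for Gstp1 and Mgst1. The lenient list of replicate 1, though not that of replicate 2, held one for Gclc and Gstp1. Of the 8 glutathione peroxidases listed in both sets of genes, Gpx1 and Gpx4 were thus the only ones with a promoter region.

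Ccs, the copper chaperone of Sod1, had a promoter region at mean percentile 83.4, and Sod3, the secreted dismutase, had none. In the list for NADPH supply, 3 of 5 genes had one. Idh1, the cytosolic isocitrate dehydrogenase, was at 89.6, Pgd, of the pentose phosphate pathway, was at 88.9, and malic enzyme (Me1) had none. Of the regulators, 9 of 11 had a promoter region, with Nfe2l1, a relative of NRF2, at 91.4 and Sesn3, a sestrin, at 81.0, while Foxo1 had none. Selenoprotein synthesis, on which Gpx1 and Gpx4 depend, had 4 of 5. Sepsecs, which makes selenocysteine on its transfer RNA, was at 77.3, Secisbp2, which binds the selenocysteine insertion element, was at 66.6, and Eefsec, the elongation factor for selenocysteine, had none. For Eefsec, the lenient list of replicate 2 alone held one. The NADPH oxidases, which make superoxide, had 2 of 9, or 22.2%. Of these 9 genes, 0 have a CpG ratio of at least 0.6, and 12.2% of all genes below that ratio had one. Cyba, the membrane subunit that stabilises the oxidase, was at 30.8, and Cybb, Ncf1, Ncf4, Nox1, Nox4, Duox1 and Duox2 had none.

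**Figure D5:**
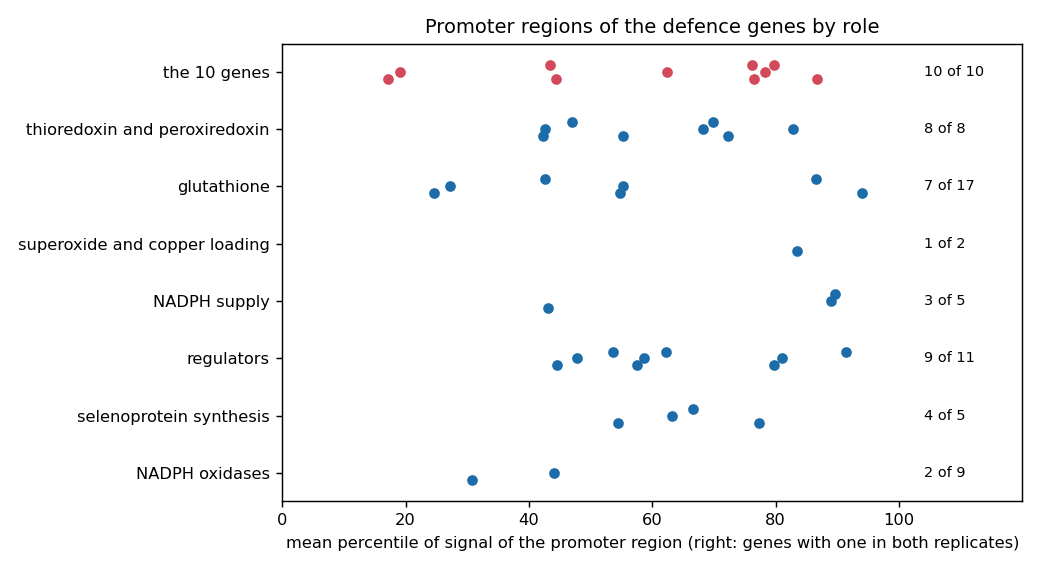
Mean percentile of signal of the promoter region for the 10 genes (red) and the other defence genes by role (blue), with the number of genes listed in both replicates at the right. All 8 thioredoxin and peroxiredoxin genes have one, as do 7 of 17 glutathione genes and 2 of 9 NADPH oxidase genes, against 38.7% of all genes. The lists differ in CpG content, with 7 of 8, 9 of 17 and 0 of 9 genes at a ratio of at least 0.6. Points are spread vertically only to separate them.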

How the data were processed

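ATAC-seq peak lists of 2 G1E libraries were used, 5 lists in all, and 8 others of the series were not used. The authors deposited, for each peak, a signal value and a −log10 p value, on mm10 per the labels. Which aligner and peak caller made them is not given in the sources used here. Signal is not scaled between libraries and was ranked only within a list.

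The main lists were those the authors thresholded per replicate by the irreproducible discovery rate. They held 26083 and 27810 summits, which merged into 21194 and 22620 regions where intervals overlapped or touched. Each region took the signal and summit of its strongest peak. Regions of both replicates that shared at least 1 bp were joined, 17425 of 25799 being in both. The lenient lists, which the labels call pseudoreplicated, held 35229 and 39290 regions, and the authors' conservative list 19003. The reference was GENCODE M21 and the RefSeq sequence of the same build. CpG ratios were the highest over 1000 bp windows centred on a gene's starts. Python 3.11.15, numpy 2.4.6 and pandas 2.3.3 were used, and the interval, merging and motif steps were checked on simulated data.

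The 10 genes, the lists of other genes and the motifs were chosen with earlier results of these data known. All 10 genes are named, with the strongest distal region at each and every region in a gene body. In each list of other genes, the 2 strongest promoter regions and all genes with none in either replicate are named, except 1 gene that is not reported here. Of 58 listed genes, 57 matched 1 annotated gene, and Nnt, which matched 2, was left out. No test was made, since there is 1 group. Depth is unknown from peak lists. The alternatives tried were other lists, a stronger subset, other windows and overlaps, unmerged summits, each replicate alone, and other motif windows.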

Additional observations from a re-analysis of the deposited data

How the results depend on the processing

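In all, 78 alternative values were computed for 12 results. Of these, 59 stayed within 1.5 times the main count or within the spread of the replicates, and 19 moved. With 1 group there was no direction that could reverse. For the 10 of 10 genes with a promoter region, a wider promoter window or either replicate alone could give no other count. By the limit of 1.5 times, a fall from 10 to 8 genes also counts as staying. Restricted to the stronger 50% of each replicate's regions, 6 of the 10 genes kept a promoter region in replicate 1 and 6 in both, against 27.1% of all genes. Prdx3, Sod1, Sod2, Gpx1, Gpx4 and Cat were kept, and Prdx1, Prdx2, Prdx5 and Prdx6 were lost. That subset left 26 and 29 regions in the replicates, 26 in both, 6 distal ones at 4 genes and 21 of the other defence genes, as fewer regions were used. The median percentiles were 76.0 and 78.2, over only the 6 and 7 genes kept in replicates 1 and 2. Regions were not ranked anew, so those medians are higher because the weaker genes were left out. The lenient lists gave 17 distal regions and median percentiles of 81.6 and 81.0, since weaker regions were added below. Windows of 25 kb gave 6 distal regions, and windows of 100 kb gave 82 and 86 regions and 74 in both. Ranking unmerged summits gave medians of 74.5 and 72.6, and the cause was not tested. With the outermost 5′ end as the only start, 8 genes kept a promoter region, without Prdx2 and Gpx4, against 35.4% of all genes. With a region required over a start, an alternative added after seeing the data, 9 did, without Prdx2, against 34.7% of all genes where the same region had to do so in both replicates. Start sites of coding transcripts alone, against 37.7% of all genes, and the authors' conservative list, both also added later, kept all 10. Each replicate alone gave 50 regions, 12 to 13 distal regions and 35 to 37 other defence genes. No paired analysis was possible because there is only 1 group. Unknown depth limits what an unlisted region means.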
